A study of Mus musculus with 6 samples.

Results

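The metallothioneins are a family of 4 mouse genes, Mt1, Mt2, Mt3 and Mt4, and were taken by gene symbol from a table of 2031 genes; all 4 had a row and all 4 passed the filter on low values. RNA sequencing of poly-A RNA had been done on cells differentiated from J1 embryonic stem cells, an established mouse line of the 129S4/SvJae strain, with no genetic change named in the labels for either group. The cells were induced towards heart muscle as embryoid bodies, which are cell aggregates that had formed by 3 days in hanging drops. Of the 6 libraries, 3 came from cultures in a conventional incubator (NC) and 3 from cultures stimulated by a static magnetic field (MF), and the design calls them biological triplicates of embryoid bodies. The sources used here give no field strength, length of exposure or day of collection. One cell line stands behind both groups, and nothing in the labels says whether the triplicates were separate differentiations, so the spread between libraries may be partly technical.

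Metallothioneins are very small cysteine-rich proteins that bind zinc and copper and also trap toxic metals such as cadmium. Mt1 and Mt2 are made in most tissues and are induced together by zinc through the transcription factor MTF1, which binds metal response elements in their promoters, and also by glucocorticoids and oxidative stress. Mt3 is known mainly from the brain, where it was described as a growth inhibitory factor, and Mt4 from stratified squamous epithelia such as skin and tongue.

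The 4 genes lie head to tail on the plus strand of chromosome 8 in the order Mt4, Mt3, Mt2, Mt1 (mm10, GENCODE M21 annotation). Mt4 runs from 94137197 to 94139031, Mt3 from 94152607 to 94154146, Mt2 from 94172664 to 94173568 and Mt1 from 94179082 to 94180327. The cluster spans 43.1 kb from the start of Mt4 to the end of Mt1, and 0 other protein-coding genes start within it. Each main transcript has 3 exons.

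The promoters are shown because all 4 genes were lower in MF and because the known inducer of the family acts through them. Each line gives the 250 bases before the RefSeq start of transcription (GRCm38.p6, the same assembly as mm10, plus strand), 5′ to 3′, with matches to the metal response element core in capitals. The windows are chr8:94178839-94179088 for Mt1, chr8:94172368-94172617 for Mt2, chr8:94152357-94152606 for Mt3 and chr8:94136954-94137203 for Mt4. All 4 symbols matched the RefSeq table.
Mt1: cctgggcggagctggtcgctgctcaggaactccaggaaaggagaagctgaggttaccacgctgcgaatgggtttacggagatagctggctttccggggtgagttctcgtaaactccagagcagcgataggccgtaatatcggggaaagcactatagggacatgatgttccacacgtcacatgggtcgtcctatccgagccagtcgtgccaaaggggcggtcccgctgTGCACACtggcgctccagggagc
Mt2: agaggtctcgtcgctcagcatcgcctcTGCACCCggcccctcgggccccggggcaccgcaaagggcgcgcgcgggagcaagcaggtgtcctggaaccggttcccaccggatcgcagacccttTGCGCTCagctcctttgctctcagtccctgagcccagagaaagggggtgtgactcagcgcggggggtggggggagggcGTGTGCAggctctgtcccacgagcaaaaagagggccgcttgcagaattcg
Mt3: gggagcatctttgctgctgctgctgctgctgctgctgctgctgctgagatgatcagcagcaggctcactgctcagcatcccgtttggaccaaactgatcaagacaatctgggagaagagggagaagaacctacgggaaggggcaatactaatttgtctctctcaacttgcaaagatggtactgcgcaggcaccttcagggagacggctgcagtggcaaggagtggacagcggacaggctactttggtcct
Mt4: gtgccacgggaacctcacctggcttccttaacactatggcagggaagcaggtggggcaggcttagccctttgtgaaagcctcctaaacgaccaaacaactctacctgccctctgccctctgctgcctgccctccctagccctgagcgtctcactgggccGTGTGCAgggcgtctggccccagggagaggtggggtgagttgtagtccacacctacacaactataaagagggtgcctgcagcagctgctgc

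The core was searched as TGCACNC or TGCGCNC on both strands, where N is any base. Mt2 held 3 matches, at -223 to -217 and -128 to -122 on the plus strand and at -50 to -44 on the minus strand, counted back from the start of transcription, and 1.26% of 32851 RefSeq windows of the same length held at least 3. Mt1 held 1 match at -23 to -17, Mt4 held 1 on the minus strand at -91 to -85, and Mt3 held 0, beside 21.4% of all windows with at least 1. The 50 bases that follow each start were searched as well without being shown. Over the resulting 300 bases Mt1 held 3 matches, Mt2 held 4, and Mt3 and Mt4 held 1 each. At least that many stood in 1.97% of all such windows for Mt1, 0.517% for Mt2 and 25.7% for Mt3 and Mt4. The coding region of the main transcript starts 222, 230, 193 and 38 bases after the RefSeq start in Mt1, Mt2, Mt3 and Mt4, so most of the stretch between the start and the coding region was not searched in the first 3 genes. The members therefore differed in how many core matches stood near the annotated start, although all 4 were lower in MF. That start lies farther from the coding region in Mt1, Mt2 and Mt3 than in Mt4, so the windows are not placed alike.

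Other elements were spread unevenly over the 4 windows. The antioxidant response element core, TGACNNNGC, occurred only in Mt2 among the 4, at -79 to -71, against 10.2% of all windows; the matching letters, TGACTCAGC, also contain the AP-1 site TGACTCA. The GC box GGGCGG occurred at 2 places in Mt1 (32.7% of windows held at least 1), the hypoxia element ACGTG at 1 place in Mt1 (16.6%), and the TATA box TATAAA at -30 to -25 in Mt4 (12.4%). The full palindromic glucocorticoid response element had 0 matches in the 4 windows (0.00913% of all windows), as had the E-box CACGTG, which contains the hypoxia element (6.02%). Such matches describe letters and are no evidence of binding. The other elements were searched only before the RefSeq start. The coding region starts 222, 230 and 193 bases after that start in Mt1, Mt2 and Mt3, against 38 in Mt4. The lack of a TATA box match in Mt1, Mt2 and Mt3 therefore does not cover the stretch between the start and the coding region.

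The values of the 4 genes rest on library totals between 14929232 and 19176383 counts, of which the deposited genes took between 5.68% and 10.4%. Every one of the 2031 genes is past the authors' own thresholds, so 100% of them count as different by that rule, and the authors' deposited table lists 36.8% of them, the 4 metallothioneins among these, as lower in MF. The smallest absolute log2 fold change in that table is 1.001 and the largest adjusted p is 0.0499. The members were also picked with their values known, and the differences between MF and NC given below describe them and test nothing. A gene without a row is not analysed here, and its absence says nothing about whether it changed. Library MF2 stood apart from the other MF libraries and closer to NC: among the 599 tested genes with lower values in MF it was the highest MF library for 538 (89.8%), and NC2 was the highest NC library for 484 (80.8%). In bulk RNA, fewer cells of a type and less RNA per cell cannot be told apart.

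Mt1 was by far the most abundant member. It stood at 126 FPKM (fragments per kilobase of gene length, scaled to library size, as deposited) in NC1, 248 in NC2 and 158 in NC3, from 2449, 4975 and 2946 counts. In MF it stood at 29.6 FPKM in MF1, 102 in MF2 and 43.6 in MF3, from 707, 2125 and 885 counts. All 3 MF libraries were below all 3 NC libraries, but MF2 and NC1 lay only 1.24-fold apart, and both groups were spread widely. The NC mean was 177 ± 63.3 FPKM and the MF mean 58.2 ± 38.1 (SD, n = 3 each), a level 3.04-fold lower in MF. Without MF2 the difference was 4.84-fold, and without MF1, NC2 or MF3 it was 2.44-fold, 2.44-fold and 2.70-fold.

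Mt2, the partner of Mt1 in the metal response, was several-fold less abundant and lower in MF by a similar factor. Its levels were 26.9, 24.7 and 19.9 FPKM in NC1, NC2 and NC3 (248, 234 and 175 counts) and 4.35, 13.9 and 6.58 FPKM in MF1, MF2 and MF3 (49, 137 and 63 counts). The groups did not overlap, with 1.44-fold between the lowest NC and the highest MF library. Mt2 was the only member for which NC2 was not the highest NC library. The mean was 23.9 ± 3.58 FPKM in NC and 8.27 ± 4.98 in MF (SD, n = 3 each), 2.89-fold lower in MF, and 4.37-fold lower without MF2. Of the 588 exonic bases of Mt2, 432 are shared with exons of Gm45774, an antisense gene on the other strand. Whether counting used the strand, and how it treated reads that fall on both genes, is unknown from these sources. The Mt2 values may therefore hold reads of both genes, or lack reads from the shared stretch. The level of Mt2 beside that of Mt1 is exposed to this in either direction.

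Mt3, the member known from the brain, was low in NC, with values close together. It stood at 4.43, 4.83 and 4.59 FPKM in NC1, NC2 and NC3, from 74, 83 and 73 counts. The coefficient of variation was 4.36% against 35.7% for Mt1. Counting error alone allows a wider spread: the exact Poisson 95% interval of NC1 ran from 3.48 to 5.57 FPKM. How even the levels were is thus not resolved by these counts. In MF it stood at 0.440 FPKM in MF1 and 0.519 in MF3, from 9 counts each, and at 2.57 in MF2, from 46 counts. The exact Poisson 95% interval of MF2, 1.88 to 3.43 FPKM, lay above those of MF1 (0.201 to 0.836) and MF3 (0.237 to 0.985) and below that of each NC library, whose lowest bound was 3.48; these intervals cover counting error only. The mean went from 4.62 ± 0.201 FPKM to 1.18 ± 1.21 (SD, n = 3 each), 3.93-fold lower in MF. This ratio rested on MF2 more than that of Mt1 or Mt2 did, since it was 9.63-fold without that library.

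Mt4, the epithelial member, was the least covered gene and was listed at 0 counts in 2 of the 3 MF libraries. NC1, NC2 and NC3 held 21, 51 and 16 counts, or 3.37, 7.95 and 2.69 FPKM. MF1 and MF3 held 0 counts, which allows up to 0.393 and 0.463 FPKM at 3 counts per library, and MF2 held 8 counts, or 1.20 FPKM. NC2 was far above the other NC libraries, and MF2 was the only MF library with any read. The mean went from 4.67 ± 2.86 FPKM to 0.399 ± 0.691 (SD, n = 3 each), 11.7-fold lower in MF. The size of that ratio moved with single libraries: it was 7.60-fold without NC2, 7.81-fold without MF1 or without MF3, and at least 22.0-fold without MF2, against a floor of 3 counts over the 2 remaining MF libraries.

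**Figure D1:**
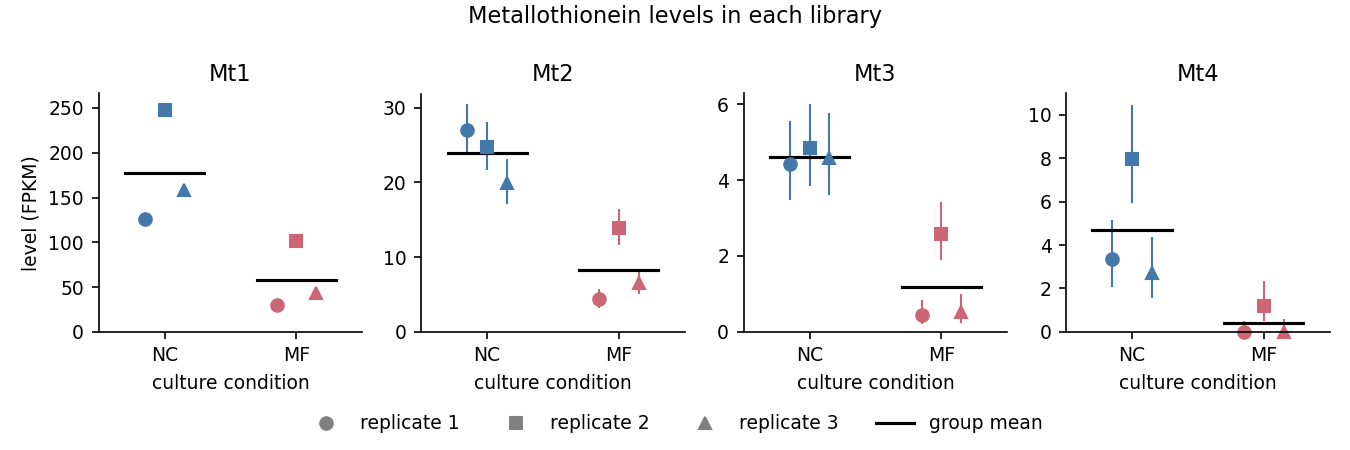
Level of each metallothionein in FPKM (vertical axis, linear, a separate scale per gene) in the 3 NC and 3 MF libraries, with exact Poisson 95% intervals as vertical lines, the replicate number as the marker shape and the group mean as a black bar. All MF points lie below all NC points in each panel, and MF replicate 2 is the highest MF point throughout, at 102, 13.9, 2.57 and 1.20 FPKM.

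Relative to the NC mean, the MF libraries kept the same order for Mt1, Mt2 and Mt3. MF2 was at 57.3%, 58.1% and 55.6% of the NC mean for Mt1, Mt2 and Mt3, and at 25.6% for Mt4. MF1 was at 16.7% for Mt1, 18.2% for Mt2 and 9.53% for Mt3, and MF3 at 24.6%, 27.6% and 11.2%. MF2 thus stood at nearly the same fraction of NC for 3 members, while in MF1 and MF3 the fraction for Mt3 was below those for Mt1 and Mt2. The difference between Mt3 and the other members was not tested, and the 9 counts behind each of the 2 lowest Mt3 values limit it.

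**Figure D2:**
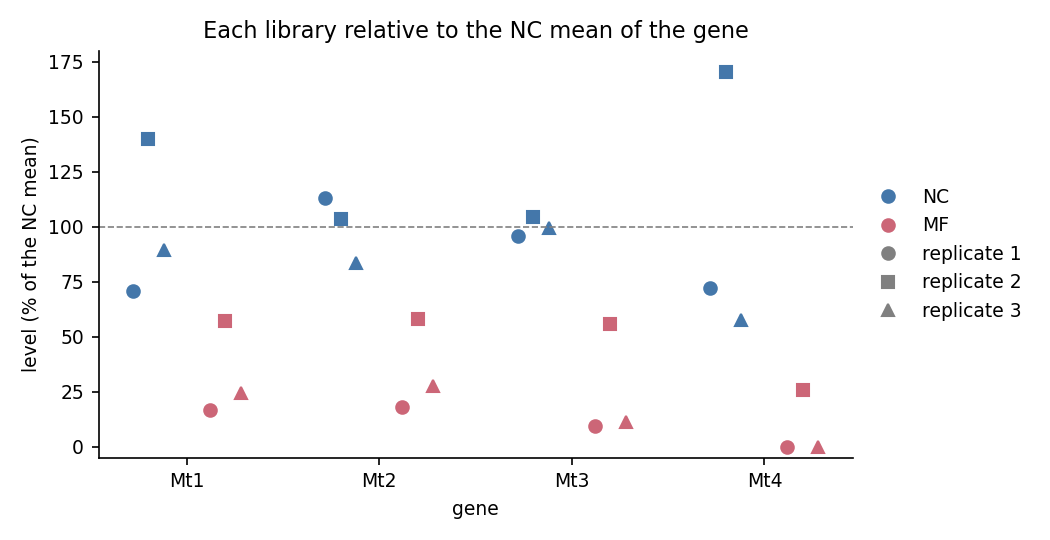
Level of each metallothionein as a percentage of its NC mean (vertical axis) for every NC and MF library, with the replicate number as the marker shape and a dashed line at 100%. MF replicate 2 sits between 55.6% and 58.1% for Mt1, Mt2 and Mt3 and at 25.6% for Mt4, above MF replicates 1 and 3 for each gene.

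Across the 4 genes, the groups' values did not overlap, against 34.2% of the 1651 tested genes in which all MF libraries were below all NC libraries and 58.4% in which all were above. With the genes chosen on this contrast, nothing is read from that count. The groups were also separate after TMM scaling. That scaling moved the median log2 fold change of the tested genes from 1.22 to 0.52, towards lower values in MF. For genes already lower in MF without overlap, separation after it therefore adds no support. On the log2 scale edgeR's quasi-likelihood fit gave -1.61 (SE 0.53) for Mt1, -1.53 (SE 0.53) for Mt2, -1.97 (SE 0.75) for Mt3 and -3.51 (SE 1.24) for Mt4. In the authors' deposited table these were -1.61, -1.53, -1.98 and -3.57, with adjusted p-values of 0.00767, 0.00859, 0.0255 and 0.0244. Among the 599 tested genes with lower values in MF, the median was -1.75, and Mt4, Mt3, Mt1 and Mt2 ranked 39, 253, 334 and 353 by the size of the difference. Apart from Mt4, whose value has the largest standard error of the 4, the members sat near the middle of the genes that were lower.

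Summed over the family, metallothionein reads came to 178, 332 and 215 CPM (counts scaled to the library total) in NC1, NC2 and NC3, and to 39.9, 138 and 58.8 in MF1, MF2 and MF3. The mean was 242 ± 80.1 CPM in NC and 78.8 ± 52.0 in MF (SD, n = 3 each). By mean FPKM, Mt1 ranked 20 among the 1983 named genes in NC and 57 in MF, and Mt2 ranked 156 and 441. Mt3 and Mt4 ranked 529 and 520 in NC, and 1289 and 1636 in MF. Within the family, Mt1 supplied 78.3% of the summed FPKM in NC1, 86.9% in NC2 and 85.3% in NC3, and between 85.2% and 86.1% in the MF libraries. Mt1 was the main transcript of the family in all 6 libraries, and its share says little about the 3 minor members.

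The order of levels in NC was Mt1, then Mt2, then Mt3 and Mt4, which did not differ beyond their spread. In MF it was Mt1, Mt2, Mt3, Mt4. Within each MF library Mt3 stood above Mt4, at 0.440, 2.57 and 0.519 FPKM against 0, 1.20 and 0 in MF1, MF2 and MF3. Low counts limit this in MF1 and MF3, and the ranges of Mt3 and Mt4 overlapped across libraries. Levels between genes depend on the length used to divide the counts. The deposited lengths are those of all annotated exons joined, 1246 bases for Mt1, 588 for Mt2, 1066 for Mt3 and 398 for Mt4, whereas the main transcripts are 549, 511, 536 and 398 bases long. With the main transcript lengths the NC means became 402, 27.5, 9.18 and 4.67 FPKM, which places Mt3 above Mt4, with all 3 NC libraries of Mt3 (at least 8.82) above those of Mt4 (at most 7.95). Comparisons of MF with NC for a single gene are untouched by the length.

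The ratio of Mt1 to Mt2, in FPKM with the deposited lengths, was 4.66 in NC1, 10.0 in NC2 and 7.94 in NC3, and 6.81, 7.32 and 6.63 in MF1, MF2 and MF3. The MF libraries lay inside the NC range. The ratio of Mt2 to Mt3 was 6.08, 5.11 and 4.35 in NC1, NC2 and NC3, and 9.87, 5.40 and 12.7 in MF1, MF2 and MF3. MF1 and MF3 were above every NC library and MF2 was within the NC range. Both ratios are exposed to the antisense overlap at Mt2.

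**Figure D3:**
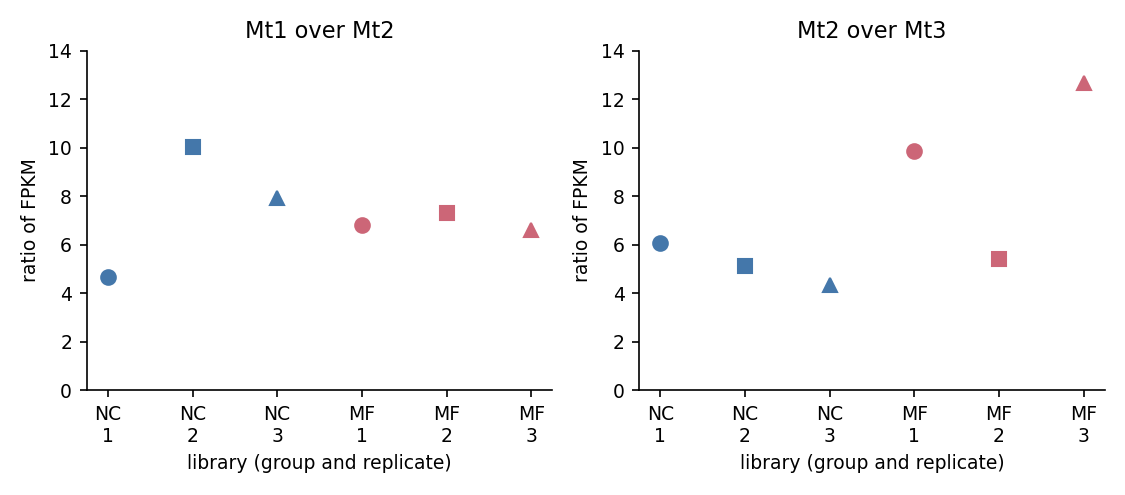
Ratio of FPKM between Mt1 and Mt2 (left) and between Mt2 and Mt3 (right) in each of the 6 libraries, named by group and replicate on the horizontal axis. The Mt1 to Mt2 ratio runs from 4.66 to 10.0 in NC and from 6.63 to 7.32 in MF, and the Mt2 to Mt3 ratio reaches 12.7 in MF replicate 3.

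Reads of Mt1, Mt3 and Mt4 had few other places to align in the annotated transcripts. The longest stretch that any 2 main transcripts share ran from 11 bases (Mt1 and Mt4) to 27 bases (Mt1 and Mt3). Of the 50-base stretches of the main transcripts, 0 of 500 in Mt1, 0 of 487 in Mt3 and 0 of 349 in Mt4 occurred in a transcript of another gene. In Mt2 210 of 462 (45.5%) did, all in the antisense gene Gm45774.

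Around the cluster, few genes were in the table. Of the 38 protein-coding genes that start within 1000 kb of the start of Mt4 on either side, 8 had a row, and 4 of those are not metallothioneins. Gnao1, which encodes a G protein subunit abundant in neurons and starts 327 kb before Mt4, was higher in MF, at 0.794 ± 0.390 FPKM in NC and 2.46 ± 0.281 in MF (SD, n = 3 each). Slc12a3, a sodium chloride cotransporter of the kidney that starts 192 kb after Mt4, was lower in MF, with 13, 35 and 20 counts in NC1, NC2 and NC3 and 0, 2 and 1 in MF1, MF2 and MF3. These are NC counts near those of Mt4, although the longer gene gives only 0.130 ± 0.0609 FPKM in NC, and its mean was below the filter of the fit. Dok4 and Ccdc102a, which start 727 and 766 kb after Mt4, had higher means in MF. Of the 4 deposited neighbours, 1 thus had the direction of the metallothioneins, beside 36.8% of all deposited genes.

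**Figure D4:**
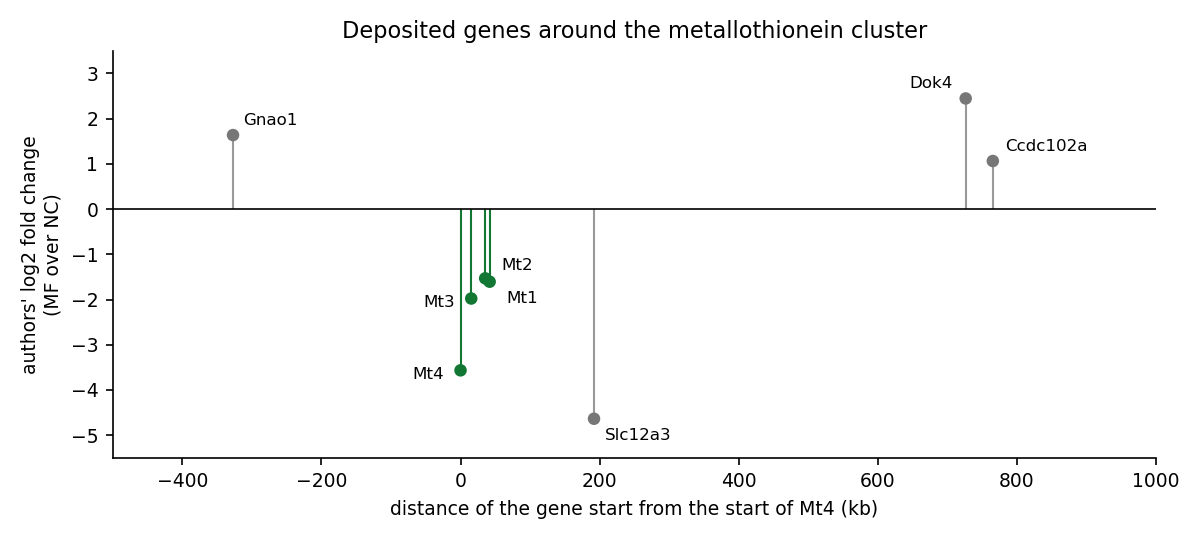
Log2 fold change of MF over NC in the authors' deposited table (vertical axis) against the distance of each gene's start from the start of Mt4 in kb (horizontal axis), for the deposited genes around the cluster. The 4 metallothioneins (green) and Slc12a3 at 192 kb are below 0, and Gnao1 at -327 kb, Dok4 and Ccdc102a (grey) are above it.

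The genes that move, store or sense metals were mostly without a row. Of 157 genes in lists on zinc, copper and iron handling, redox defence, hormone, heat and low oxygen responses and neighbours of the cluster, 19 were in the table outside the family itself. Of these, 9 had every MF library below every NC library and 10 had every MF library above, beside 34.2% and 58.4% of all tested genes. None of the 10 zinc exporters (Slc30a family) and 14 zinc importers (Slc39a family) had a row. Of MTF1 and its known targets outside the family, 1 of 7 had a row: Ndrg1, a stress gene that is also on the hypoxia list, stood at 4.82 ± 1.31 FPKM in NC and 11.2 ± 3.22 in MF (SD, n = 3 each).

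Copper and iron genes with a row were higher in MF, the opposite direction to the metallothioneins. Of 19 copper genes 3 were in the table, and edgeR called all 3 higher, against 62.1% of tested genes called higher. Atp7a, the pump that exports copper, stood at 1.13 ± 0.466 FPKM in NC and 2.96 ± 1.04 in MF, and the metalloreductase Steap4 at 0.750 ± 0.182 and 3.86 ± 0.850. The related metalloreductase Steap2 stood at 1.97 ± 0.0120 in NC and 3.98 ± 1.02 in MF (SD, n = 3 each). Of 21 iron genes 2 were in the table and both were called higher, against the same 62.1%. Slc40a1, which encodes the iron exporter ferroportin, stood at 4.35 ± 1.23 and 9.55 ± 2.45 FPKM. Lcn2, a siderophore-binding protein, stood at 0.566 ± 0.109 and 1.82 ± 0.597. All these calls use scaling to library totals. With TMM scaling the genes called higher fell from 1026 to 291, and the copper and iron genes are not shown under it.

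Genes of glutathione metabolism and other NRF2 targets went both ways. Of 35 listed, 7 had a row, of which edgeR called 5 lower (background 35.4%) and 1 higher (background 62.1%). The glutathione transferase Gsta4 stood at 114 ± 25.5 FPKM in NC and 44.5 ± 28.2 in MF, and glutathione reductase Gsr at 44.3 ± 10.9 and 22.0 ± 5.32. Nqo1, a quinone reductase, stood at 17.0 ± 2.01 in NC and 7.15 ± 1.08 in MF (SD, n = 3 each). Gpx2 and Gsta3 were also called lower. Gpx8, a peroxidase of the endoplasmic reticulum, stood at 18.4 ± 10.3 in NC and 41.3 ± 2.78 in MF and was called higher, while Osgin1, with 0.614 ± 0.216 in NC and 1.47 ± 0.409 in MF, was not called.

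Other inducers of Mt1 and Mt2 were represented by few genes. Of 12 glucocorticoid-induced genes 2 had a row and both were called lower, against 35.4% of tested genes called lower. Sgk1, a kinase induced by glucocorticoids, stood at 39.7, 82.2 and 32.2 FPKM in NC1, NC2 and NC3. In MF1, MF2 and MF3 it stood at 8.75, 25.1 and 9.61. The replicate 2 libraries were highest in both groups, as for Mt1. Among the 599 tested genes lower in MF, NC2 led NC for 80.8% and MF2 led MF for 89.8%. Fkbp5, a cochaperone of the glucocorticoid receptor, stood at 9.37 ± 3.40 in NC and 4.31 ± 1.66 in MF (SD, n = 3 each). Of 15 heat shock genes 1 had a row, Hsp90aa1, with 901 ± 377 FPKM in NC and 423 ± 123 in MF, and it was called lower (background again 35.4%). Of 18 hypoxia-induced genes 2 had a row, Ndrg1 and Hif3a, and both were called higher, against 62.1% of tested genes. Hif3a, a regulator of the hypoxia response, stood at 0.776 ± 0.102 FPKM in NC and 2.40 ± 1.23 in MF. These calls come from the same selected table, in which 97.5% of tested genes were called in either direction.

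**Figure D5:**
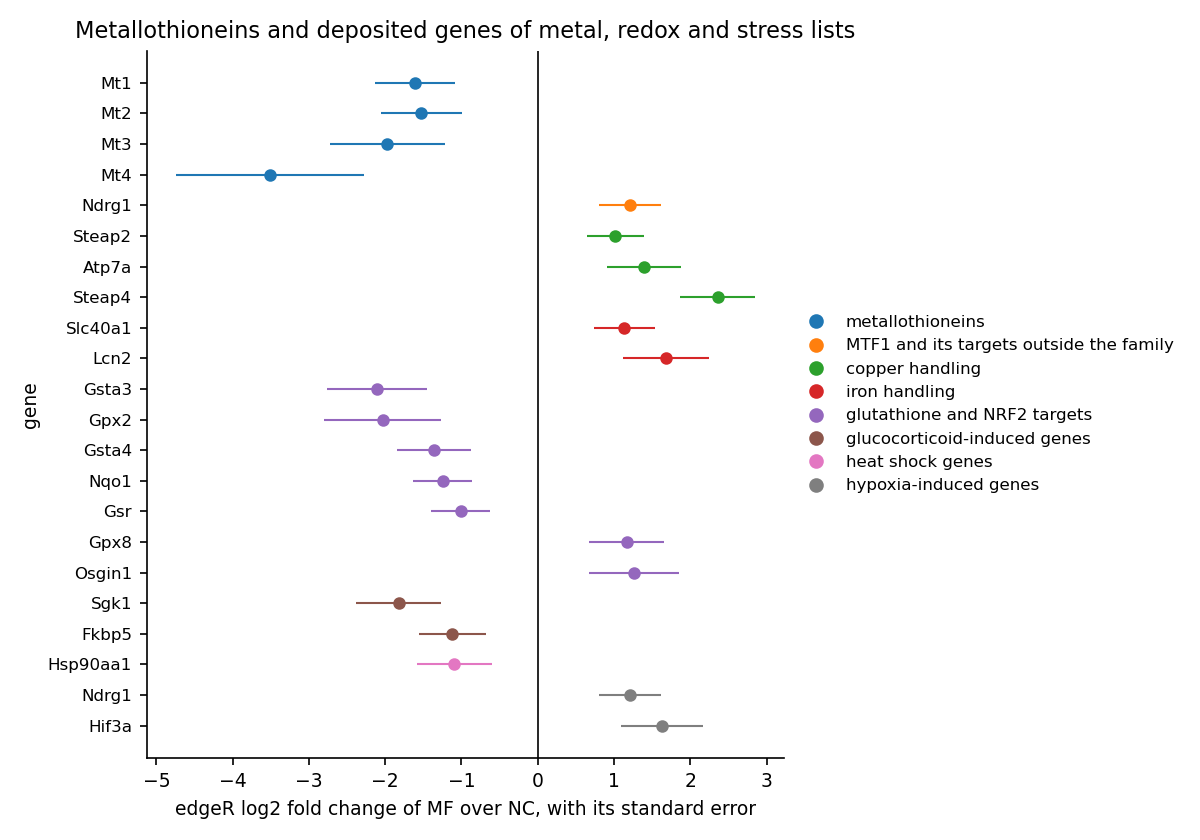
edgeR log2 fold change of MF over NC (horizontal axis) with its standard error for the 4 metallothioneins and the tested genes of the metal, redox and stress lists that have a row, coloured by list. The metallothioneins lie between -3.51 and -1.53, the copper, iron and hypoxia genes lie above 0, and the glutathione and NRF2 genes lie on both sides. Ndrg1 is drawn under both lists that hold it.

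The 4 metallothioneins varied together over the 6 libraries, with Pearson r of log2(FPKM + 1) from 0.930 (Mt2 and Mt4) to 0.979 (Mt2 and Mt3). Taken as deviations from the group means, r was between 0.709 and 0.916. These values describe 6 libraries that fall into 2 groups and share depth and scaling within a library. High values were common: of 958 named genes that averaged 2 FPKM or more, 136 had an r of at least 0.95 with Mt1, 79 with Mt2, 98 with Mt3 and 215 with Mt4.

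The genes closest to Mt1 by that measure were Zcchc10, Gsta4, Lefty2, Pycard and Dppa3, with r from 0.991 to 0.993. Lefty2, an inhibitor of Nodal signalling, stood at 44.0, 93.4 and 43.4 FPKM in NC1, NC2 and NC3 and at 1.86, 20.7 and 3.93 in MF1, MF2 and MF3. Dppa3, a marker of naive pluripotent cells and germ cells, stood at 33.9, 73.6 and 36.6 and at 3.16, 15.7 and 5.30 in the same order. In both genes NC2 was the highest NC library and MF2 the highest MF library, as in Mt1. Genes chosen for high r with Mt1 over these 6 libraries tend to share its order, so the likeness is no separate observation.

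Mt2 was followed most closely by Mnd1, a factor of meiotic recombination, Mif4gd, Slc7a3, Glt1d1 and Eras, a Ras protein of embryonic stem cells, with r from 0.986 to 0.993. For Mt3 the list was Eomes, Slc7a3, Mif4gd, Tnnt1 and Nhp2, with r from 0.993 to 0.996. Eomes, a T-box factor of early mesoderm and endoderm, stood at 3.00, 3.35 and 3.74 FPKM in NC1, NC2 and NC3 and at 0.326, 1.80 and 0.384 in MF1, MF2 and MF3. Slc7a3, a cationic amino acid transporter, stood at 16.9, 17.3 and 16.7 and at 1.60, 8.78 and 2.65 in the same order. Its shape resembled that of Mt3 because it was chosen for that likeness. Mt4 was followed by Hspbap1, Tmem8, Epp13, Rhox1 and Mageb16, with r from 0.997 to 0.998. Rhox1 is a homeobox gene of the X-linked Rhox cluster. It stood at 4.27, 9.42 and 3.87 FPKM in NC and at 0.0591, 1.69 and 0.139 in MF. It was highest in the replicate 2 libraries, as genes chosen for likeness to Mt4 tend to be. Which 5 genes led depended on the pseudocount: at 0.1 the lists kept 3, 4, 4 and 1 of the 5 for Mt1, Mt2, Mt3 and Mt4. Ranked by deviations from the group means instead, they kept 4, 3, 0 and 1, so none of the 5 genes named for Mt3 was among its closest by that measure.

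Markers of pluripotent cells with a row were also lower in MF. Of 13 such markers 4 had a row (Dppa3, Utf1, Klf2 and Prdm14), and in all 4 every MF library was below every NC library, beside 34.2% of all tested genes. Their summed level was between 274 and 750 FPKM in NC, highest in NC2, and between 65.5 and 185 in MF, highest in MF2. Mt1, Mt3 and Mt4 were highest in the same libraries. So were most of the 599 tested genes lower in MF: NC2 led NC for 80.8% and MF2 led MF for 89.8%. Of 12 cardiomyocyte markers 9 had a row and all 9 were higher in MF on average. In 7 of them every MF library was above every NC library, beside 58.4% of all tested genes. The cardiomyocyte sum was 31.1 to 72.5 FPKM in NC and 132 to 668 in MF, lowest in MF2. Actc1 and Myl7 had the highest MF means of these markers, 147 and 143 FPKM, and weighed most in it. Tnni3 stood at 3.21, 8.19 and 1.61 FPKM in MF1, MF2 and MF3, and Myl2 at 8.58, 15.6 and 1.70. These were highest in MF2, and Myl3 was lowest in MF3, while the remaining markers were lowest in MF2. Of 11 markers of fibroblasts and mesenchyme, all had a row and a higher mean in MF. In 7 of the 11 every MF library was above every NC library, beside the same 58.4%. Their sum was 184 to 349 FPKM in NC and 322 to 1512 in MF, again lowest in MF2. The part of pluripotent, cardiomyocyte and mesenchyme cells in the metallothionein values was not tested. The labels name the cells only as differentiated from J1 stem cells, and NC held transcripts of the pluripotency gene Utf1 at 162, 335 and 131 FPKM.

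Markers of the tissues best known for Mt3 and Mt4 were scarce in the table. Of 7 astrocyte markers only Aldh1l1 had a row, at 1.68 ± 0.579 FPKM in NC and 0.607 ± 0.323 in MF (SD, n = 3 each), and of 10 markers of neural progenitors and neurons 1 had a row, with at most 0.0794 FPKM in NC and up to 1.62 in MF, reached in MF2. Of 8 markers of stratified epithelium 2 had a row. Krt14, a keratin of basal epithelial cells, stood at 12.4, 9.32 and 14.6 FPKM in NC1, NC2 and NC3. In MF1, MF2 and MF3 it stood at 5.28, 6.03 and 5.52. Any link between Krt14 and Mt4 was not tested. Krt13, a keratin of mucosal epithelium, had a mean of 0.106 FPKM in NC and 0.825 in MF with overlapping groups. Of 23 markers of visceral endoderm, yolk sac and liver, tissues rich in Mt1 and Mt2, 1 had a row: Gata6, a factor of early endoderm and of the forming heart, had a mean of 2.23 ± 1.08 FPKM in NC and 17.1 ± 13.0 in MF (SD, n = 3 each), with MF2 inside the NC range at 2.19. Of 11 markers of endothelium and blood 4 had a row. Cdh5, Kdr and Cd34 had every MF library above every NC library, beside 58.4% of all tested genes, while Pecam1 had every MF library below every NC library and stood at 38.2 FPKM in NC2. The sums of the 4, which Pecam1 led in NC, were 12.4 to 42.8 FPKM in NC and 21.4 to 39.7 in MF and overlapped.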

How the data were processed

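Poly-A RNA of 3 NC and 3 MF libraries was sequenced. Per the submitters' processing notes, HISAT2 2.0.5, featureCounts and mm10 were used; the sources used here give no settings, strand use or tool behind the authors' comparison. Per the file headers, each deposited file gives, for 2031 genes, raw counts, FPKM values, the authors' normalized signal (not used here), and their log2 fold change with its p-values. The 48 rows without a gene name took at most 0.0390% of a library's total and stayed out of the tests.

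Library totals were recovered from deposited count, FPKM and length. Named genes averaging 0.5 FPKM or more (1651) were fitted with edgeR 4.0.16 (R 4.3.3), quasi-likelihood and two-sided, with those totals as library sizes and Benjamini-Hochberg adjustment at 0.05 over the 1651 genes; since the genes had been selected on these libraries, it gives no genome-wide error rate. A trial of the fit on simulated counts changed a minority of genes equally in both directions. The selected table differs from that, so the trial says nothing on error rates here. The standard error is the log2 fold change divided by the square root of F. Intervals for counts are exact Poisson at 95%, and 3 counts is the limit that a count of 0 allows; both cover counting error only. Similar genes were the 5 with the highest Pearson r of log2(FPKM + 1) per member, among named genes averaging 2 FPKM or more, predicted models left out; up to 6 genes per list could be named. Promoters are RefSeq's. The members and lists were chosen with earlier results of these data known.

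Replicate numbers are shared between groups. Deviations from the group means correlated at 0.40, 0.54 and 0.35 for numbers 1, 2 and 3. All were over 0.1, so numbers were taken as pairs for the replicate block. NC3 with MF1 (0.54) and NC1 with MF3 (0.15) were over 0.1 too, so the values do not settle the pairing of numbers 1 and 3. The pairing comes from the values, not from a label. No 2 libraries agreed within sampling noise (chi-square per degree of freedom 19.4 to 232). Alternatives were TMM and median-of-ratios scaling, DESeq2 1.42.0, limma 3.58.1, other filters and pseudocounts, the block, and each library left out.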

Additional observations from a re-analysis of the deposited data

How the results depend on the processing

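In each alternative fitted the log2 fold change of all 4 metallothioneins was below 0. That adds no support, since the genes were in the table for their difference in these same libraries. With groups that do not overlap, leaving libraries out cannot reverse the sign. Scaling changed its size: the values for Mt1, Mt2, Mt3 and Mt4 were -2.28, -2.17, -2.58 and -4.18 with TMM and -2.56, -2.45, -2.81 and -4.45 with median-of-ratios scaling. Those scalings moved the median log2 fold change of the 1651 tested genes from 1.22 to 0.52 and 0.16, towards lower values in MF. The count of genes called by edgeR, 1610 (1026 higher and 584 lower, 36.3% lower), became 880 with TMM (291 higher and 589 lower, 66.9% lower) and 665 with median-of-ratios scaling (158 and 507, 76.2% lower). A filter at 2 FPKM left fewer genes to test and called 980. Leaving out 1 library gave between 12 and 1578 calls. The called metallothioneins were 4 of 4 without MF2, 3 without NC3, 1 without NC1 and 0 without NC2, MF1 or MF3. Over all 1651 tested genes, 582, 383, 219, 146, 90 and 0 were called lower without MF2, NC3, NC1, NC2, MF1 and MF3. Fewer members were thus called where fewer genes of the whole table were called lower. With median-of-ratios scaling 2 metallothioneins were called, beside 507 of the 1651 genes called lower. With the replicate number as a block, 1620 genes were called and the metallothionein values were -1.74, -1.67, -2.38 and -4.03; the block changed no call of a member. Leaving out both replicate 2 libraries, which was chosen after seeing the data, gave 1609 calls. With TMM scaling, 9 pathway genes had all MF libraries below all NC libraries, the reported count. Since TMM moved values in MF down relative to NC, that adds no support. Leaving libraries out cannot change that count, since groups without overlap stay apart. Depth limits Mt3 and Mt4 most, with 9 counts or fewer in MF1 and MF3.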
